A study of Homo sapiens with 9 samples.

Results

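The replication licensing and replisome genes described here are 51 genes that load, fire and run the DNA replication machinery. They were taken by symbol from the table of normalized reads, on a primary chromosome, out of 63677 genes in all, and each of the 51 had a single such row. No measured value entered this rule, but the list was chosen with earlier results of these data known. They were followed in HCT116 cells, a human colon adenocarcinoma line labelled wild type, sampled 48 h after transfection of siRNA with a lipid reagent. The 3 groups, of 3 libraries each, received a control siRNA (siControl), an siRNA against RNF40 (siRNF40) or an siRNA against TGM2, which the labels write as siTG2. RNF40 is a subunit of the E3 ligase that monoubiquitinates histone H2B, and TGM2 encodes tissue transglutaminase. All 9 libraries are polyadenylated RNA of this single line. The number and sequence of the siRNAs are not given in the sources used here, so an effect of the targeted gene and an effect of the siRNA itself cannot be told apart.

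DNA replication starts at origins that are licensed once per cell cycle. In late mitosis and G1 the origin recognition complex (ORC), CDC6 and CDT1 load the MCM2-7 helicase on DNA as an inactive double ring, and geminin (GMNN) later binds CDT1 and stops further loading. At S phase entry the DBF4-CDC7 kinase, TOPBP1 and other factors bring CDC45 and GINS to MCM2-7, which forms the active helicase. Polymerase alpha with primase starts each new strand, RFC loads the PCNA clamp, polymerases epsilon and delta extend the leading and lagging strands, and RPA coats single-stranded DNA. Many of these genes are textbook targets of E2F factors and are most highly transcribed around the G1/S boundary. In bulk RNA, fewer cells in S phase and less RNA per cell cannot be told apart.

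With the deposited size factors, most of these genes were called lower in each knockdown, but the pattern across the complexes was not the same. In siRNF40, 42 of 51 were called lower than in siControl, where 23.6% of all tested genes were. Only POLD2 and RPA2 were called higher, against 21.7% of all tested genes, and 7 members (ORC2, ORC4, ORC5, MCM7, POLD1, RPA3 and TIPIN) were not called. In siTG2, 36 of 51 were called lower, against 18.5% of all tested genes, none was called higher, against 12.8%, and 15 were not called. A gene was called where limma gave a Benjamini-Hochberg adjusted p under 0.05 over 17663 tested genes. All 51 members passed the filter on low values, a mean of at least 10 normalized reads. Fold changes are given as log2 values from limma, against siControl unless the direct contrast is named, with the standard error (SE). The median log2 fold change of the members was -0.77 in siRNF40 (range -1.93 for CLSPN to 0.63 for POLD2) and -0.44 in siTG2 (range -1.38 for GINS2 to 0.12 for DNA2), beside 0.02 and -0.01 over all tested genes. Every siRNF40 library lay below every siControl library for 44 members (26.8% of all tested genes), and every siTG2 library did so for 42 (26.1%). The authors' deposited tables of DESeq2 comparisons call the same numbers, 42 lower and 2 higher in siRNF40 and 36 lower and 0 higher in siTG2. Both comparisons use the same 3 siControl libraries, so their values are set side by side and are not independent of each other.

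The siTG2 counts depended on the scaling. When libraries were scaled to equal totals instead of by the deposited size factors, the median of all tested genes moved to 0.13 in siTG2, and 25 members rather than 36 were called lower. The split of all calls in siTG2 moved with it, from 59.1% lower to 32.8% lower. Relative to the median of all genes, the members' median was -0.43 under both scalings. The 11 members whose siTG2 call ended were ORC1, MCM6, MCM8, MCM10, CDC45, GINS3, PRIM1, POLD3, PCNA, RPA2 and TIMELESS. The siRNF40 counts under equal totals were again 42 lower and 2 higher.

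**Figure D1:**
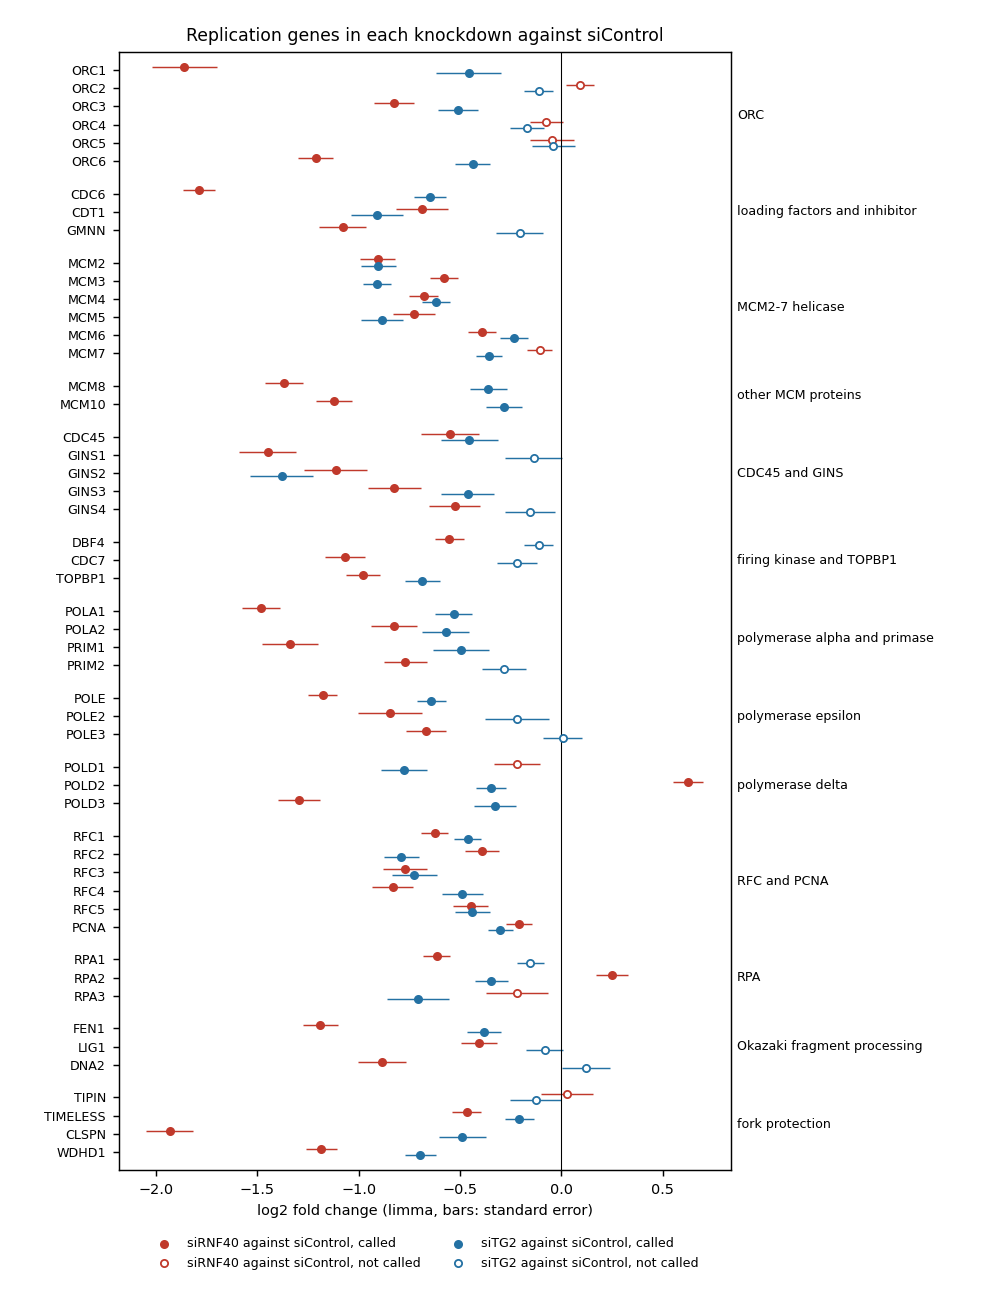
log2 fold change of each of the 51 genes (x axis) against siControl for siRNF40 (red) and siTG2 (blue), grouped by complex on the y axis. Filled points were called by limma, open points were not, and bars are the standard error. In siRNF40 the points run from -1.93 (CLSPN) to 0.63 (POLD2), while the siTG2 points run from -1.38 (GINS2) to 0.12 (DNA2).

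The libraries held 29161285 to 35743918 reads in genes, so 1 read was worth 0.88 to 1.1 normalized reads. The members' means over all libraries ran from 302 to 4558 normalized reads. RNF40 was at 3004, 2784 and 2565 in siControl, 535, 497 and 528 in siRNF40, and 2249, 2506 and 2158 in siTG2, and its level in siRNF40 was 18.7% of that in siControl. TGM2 was at 559, 702 and 554 in siControl, 839, 829.6 and 963 in siRNF40, and 59.4, 120.5 and 155 in siTG2, and its level in siTG2 was 18.5% of that in siControl. Each targeted gene was thus lower in every library of its own knockdown than in any library of the other groups. RNF40 was also called lower in siTG2 (log2 -0.27, SE 0.085, adjusted p = 0.0192), a call that ended under some alternatives (highest adjusted p 0.26). Of 7 colon epithelial markers, EPCAM, KRT8, KRT18, KRT19, CDH1 and CDX2 had means of 318 normalized reads or more in every group, and VIL1 was near 0 (0.34 to 4.3). Of 6 markers of other cell types, PTPRC, HBB and COL1A2 had means of at most 5.3 in every group. ALB was at 10.5 to 30.4 and COL1A1 was at 889 to 1463. PECAM1 had no row on a primary chromosome. Its row on a patch sequence was at 0 in every library, so its level cannot be read from these values. The signal recognition particle RNA RN7SL2 was at 1023, 812 and 910.1 normalized reads in siControl, 7842, 2760 and 2689 in siRNF40, and 819.6, 2317 and 1505 in siTG2. It was thus higher in every siRNF40 library than in any other library, and siRNF40 replicate 1 was highest. Its part in the results was not tested. Without siRNF40 replicate 1, 41 members were called lower and 1 higher in siRNF40.

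Promoter sequences matched 44 of the 51 members by symbol (RefSeq, GRCh38.p14, from 250 bases before to 50 bases after each gene start). An E2F-type word on either strand, which means TTCCCGC or else TTGGCGC or else TTCGCGC or else TTGCCGC, was present for 33 of these 44 (75.0%), against 15.3% of the 27305 genes in the table. The word CCAAT, bound by NF-Y, was present for 25 (56.8% against 39.7%), and TTTGAA, the core of the cell cycle homology region of many G2 and mitosis genes, for 2 (4.5% against 18.2%). Of the 33 members with an E2F-type word, 31 were called lower in siRNF40 (median log2 fold change -0.83) and 25 in siTG2 (-0.46). Of the 11 without one, 6 were called lower in siRNF40 (-0.55) and 6 in siTG2 (-0.28). Over all 51 members the counts were 42 and 36, and over all tested genes the shares were 23.6% and 18.5%. The share called lower among all genes that hold such a word was not computed. The part of these words in the falls was not tested. These are matches of letters and not shown binding sites, and close variants of the words were not searched. A gene with several promoters was counted if any of them held the word. The 27305 genes were not limited to the tested genes or matched for base content. The bases before the gene start of CDC6 and of CDC45 hold ttggcgg, which differs from TTGGCGC in the last base. CDC45 was counted as without an E2F-type word. The 150 bases before the gene start are printed below, 5′ to 3′ on the gene's strand, with E2F-type words and CCAAT, which reads ATTGG on the other strand, in capitals. ORC1 and ORC2 are shown as subunits of a single complex that moved apart in siRNF40, CDC6 for its fall in siRNF40, CDT1 and GINS2 for the largest falls in siTG2, and POLD2 because it rose in siRNF40. They were picked for how they moved, and other members went otherwise in siRNF40. ORC6, FEN1 and MCM10 hold no E2F-type word and fell (log2 -1.21, -1.19 and -1.12). MCM7 and TIPIN hold one and were not called.
ORC1, chr1:52404424-52404573, minus strand: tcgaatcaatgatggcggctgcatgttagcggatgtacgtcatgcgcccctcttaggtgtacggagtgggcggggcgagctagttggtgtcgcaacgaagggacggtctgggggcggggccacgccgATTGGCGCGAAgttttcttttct
ORC2, chr2:200963661-200963810, minus strand: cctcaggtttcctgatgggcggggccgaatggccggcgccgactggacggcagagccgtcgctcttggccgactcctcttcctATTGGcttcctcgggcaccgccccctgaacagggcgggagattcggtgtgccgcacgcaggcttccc
CDC6, chr17:40287729-40287878, plus strand: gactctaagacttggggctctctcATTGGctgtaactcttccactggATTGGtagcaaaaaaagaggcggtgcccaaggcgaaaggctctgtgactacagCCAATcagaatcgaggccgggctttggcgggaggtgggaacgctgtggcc
CDT1, chr16:88803639-88803788, plus strand: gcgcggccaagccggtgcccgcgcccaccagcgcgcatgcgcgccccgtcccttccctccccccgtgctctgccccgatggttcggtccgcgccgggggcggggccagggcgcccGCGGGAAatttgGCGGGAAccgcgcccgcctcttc
GINS2, chr16:85688955-85689104, minus strand: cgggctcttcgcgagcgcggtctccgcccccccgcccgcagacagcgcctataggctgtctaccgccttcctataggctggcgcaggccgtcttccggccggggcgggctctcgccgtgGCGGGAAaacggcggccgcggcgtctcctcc
POLD2, chr7:44123549-44123698, minus strand: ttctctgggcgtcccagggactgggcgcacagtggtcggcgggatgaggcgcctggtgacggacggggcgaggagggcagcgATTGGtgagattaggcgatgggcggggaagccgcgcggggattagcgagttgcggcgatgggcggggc
In ORC1 a CCAAT word and 2 E2F-type words overlap in a single run that starts at position -23 from the gene start. CDT1 holds TTCCCGC on the other strand at -35 and at -23, and GINS2 holds it at -31. CDC6 holds 3 CCAAT words in these bases, and its only match to the listed E2F-type words lies just after the gene start. ORC2 and POLD2 hold 1 CCAAT word each and none of the E2F-type words in these bases.

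The subunits of ORC, which marks origins, moved apart from each other in siRNF40. ORC1, ORC3 and ORC6 fell, and ORC2, ORC4 and ORC5 were not called. Normalized reads of ORC1, the subunit whose level is regulated through the cell cycle, were 425, 497 and 436 in siControl, 98.9, 126 and 152 in siRNF40, and 304, 348 and 335 in siTG2. The siRNF40 libraries all lay below the siTG2 libraries, which all lay below siControl. The fall of ORC1 was log2 -1.86 (SE 0.16, adjusted p = 2.34e-08) in siRNF40, to 27.7% of siControl. In siTG2 it was log2 -0.46 (SE 0.16, adjusted p = 0.0364), a call that ended under scaling to equal totals, with no filter on low values and without each of several libraries (highest adjusted p 0.147). Normalized reads of ORC6, which helps to load MCM2-7, were 1357, 1391 and 1329 in siControl, 614, 558 and 587 in siRNF40, and 949.7, 1006 and 1059 in siTG2. The 3 groups again did not overlap, and ORC6 changed by log2 -1.21 (SE 0.087, adjusted p = 2.11e-09) in siRNF40 and by log2 -0.44 (SE 0.087, adjusted p = 0.000762) in siTG2. ORC3 was at 1248, 1346 and 1164 in siControl, 633, 764 and 727 in siRNF40, and 904, 803 and 928 in siTG2, and it changed by log2 -0.82 (SE 0.099, adjusted p = 1.62e-06) in siRNF40 and by log2 -0.51 (SE 0.099, adjusted p = 0.000597) in siTG2, the largest fall of an ORC subunit there. ORC2 had group means of 2027, 2160 and 1876 in siControl, siRNF40 and siTG2, ORC4 of 2048, 1949 and 1828, and ORC5 of 874, 851 and 853. Their log2 fold changes lay between -0.17 and 0.09 in both knockdowns. The median over the 6 subunits was -0.45 in siRNF40 and -0.30 in siTG2.

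The loading factors CDC6 and CDT1 fell in both knockdowns, and CDC6 was lower in siRNF40 than in siTG2 (direct contrast log2 -1.14, SE 0.078, adjusted p = 6.15e-10). CDC6, the ATPase that closes the ring of ORC around DNA, was at 5534, 6263 and 5810 in siControl, 1720, 1859 and 1526 in siRNF40, and 3687, 3579 and 3951 in siTG2. No groups overlapped, and CDC6 changed by log2 -1.79 (SE 0.078, adjusted p = 3.11e-12) in siRNF40, to 29% of siControl, and by log2 -0.65 (SE 0.078, adjusted p = 3.66e-06) in siTG2. CDT1, which brings MCM2-7 to origins, was at 1866, 1724 and 1563 in siControl, 1037, 902 and 1290 in siRNF40, and 744, 1024 and 997 in siTG2. Both knockdowns lay below siControl and overlapped each other, with log2 -0.69 (SE 0.13, adjusted p = 0.00023) in siRNF40 and log2 -0.91 (SE 0.13, adjusted p = 2.45e-05) in siTG2, and the direct contrast was not called (log2 0.22, SE 0.13, adjusted p = 0.157). GMNN, the inhibitor of CDT1, was at 787, 937 and 975 in siControl, 480.3, 432 and 366 in siRNF40, and 769.7, 753 and 809 in siTG2. GMNN fell in siRNF40 (log2 -1.08, SE 0.12, adjusted p = 3.73e-07), while the siTG2 libraries overlapped siControl and it was not called there (log2 -0.21, SE 0.12, adjusted p = 0.194).

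All 6 genes of the MCM2-7 helicase fell in siTG2, and 5 of 6 fell in siRNF40. The median was -0.63 in siRNF40 and -0.75 in siTG2. MCM2 was at 1767, 1778 and 1803 in siControl, 887, 954 and 1013 in siRNF40, and 1015, 871 and 975 in siTG2. Its means in siRNF40 and siTG2 were 53.4% and 53.5% of siControl, with log2 -0.91 (SE 0.086, adjusted p = 8.67e-08) in siRNF40 and log2 -0.90 (SE 0.086, adjusted p = 1.99e-07) in siTG2. MCM5 was at 1081, 1249 and 1291 in siControl, 718, 667 and 798 in siRNF40, and 714, 604 and 640.2 in siTG2, with log2 -0.73 (SE 0.10, adjusted p = 1.25e-05) in siRNF40 and log2 -0.88 (SE 0.10, adjusted p = 2.88e-06) in siTG2. MCM3 was at 3539, 3654 and 3682 in siControl, 2406, 2428 and 2443 in siRNF40, and 1923, 2072 and 1808 in siTG2, and the 3 groups did not overlap. It changed by log2 -0.58 (SE 0.069, adjusted p = 1.46e-06) in siRNF40 and by log2 -0.91 (SE 0.069, adjusted p = 1.06e-08) in siTG2, and was called higher in siRNF40 than in siTG2 (log2 0.33, SE 0.069, adjusted p = 0.000519). MCM4 and MCM6 fell in both, with log2 values of -0.68 and -0.39 in siRNF40 and of -0.62 and -0.23 in siTG2. Scaling to equal totals ended the siTG2 call of MCM6 (highest adjusted p 0.337 over the alternatives). MCM7 had group means of 4825, 4487 and 3765; it fell in siTG2 (log2 -0.36, SE 0.063, adjusted p = 0.000246), and its siRNF40 value was not called (log2 -0.11, SE 0.063, adjusted p = 0.184). MCM2 and TPRA1 overlap by 29 bases on opposite strands, and whether reads were counted by strand is not given in the sources used here.

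The 2 other MCM proteins, which are not part of the ring, fell more in siRNF40 than in siTG2. MCM8, which acts with MCM9 in recombination repair, was at 1214, 1390 and 1267 in siControl, 505, 499 and 491 in siRNF40, and 1076, 928 and 1014 in siTG2. The change was log2 -1.37 (SE 0.093, adjusted p = 9.75e-10) in siRNF40 and log2 -0.36 (SE 0.093, adjusted p = 0.00588) in siTG2. MCM10, a helicase activation factor that shares the name but is not a helicase subunit, was at 1269, 1167 and 1345 in siControl, 587, 576 and 568 in siRNF40, and 1047, 1000 and 1058 in siTG2. It changed by log2 -1.12 (SE 0.088, adjusted p = 6.77e-09) in siRNF40 and by log2 -0.28 (SE 0.088, adjusted p = 0.0194) in siTG2. Neither MCM8 nor MCM10 was called in siTG2 under scaling to equal totals (highest adjusted p 0.0853 and 0.249 over the alternatives). For both genes the 3 groups were in the order siRNF40, siTG2, siControl without overlap, and the direct contrast was called (log2 -1.01, SE 0.093, adjusted p = 3.16e-08 for MCM8 and log2 -0.84, SE 0.088, adjusted p = 1.72e-07 for MCM10).

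CDC45 and the 4 GINS subunits, which turn MCM2-7 into the active helicase, all fell in siRNF40, and CDC45, GINS2 and GINS3 fell in siTG2. The GINS subunits form a complex with 1 copy of each, and their mRNAs differed in how they moved. GINS1 was at 730.0, 778 and 919 in siControl, 266, 375 and 256 in siRNF40, and 654, 746 and 806 in siTG2. It fell in siRNF40 (log2 -1.45, SE 0.14, adjusted p = 1.15e-07) and was not called in siTG2 (log2 -0.14, SE 0.14, adjusted p = 0.505), and the direct contrast was called (log2 -1.31, SE 0.14, adjusted p = 2.45e-07). GINS2 was at 524, 526 and 542 in siControl, 199.9, 264 and 276 in siRNF40, and 179, 191 and 245 in siTG2. All 6 knockdown libraries lay at 276 or below and all siControl libraries at 524 or above, with log2 -1.11 (SE 0.16, adjusted p = 9.99e-06) in siRNF40 and log2 -1.38 (SE 0.16, adjusted p = 1.77e-06) in siTG2, the largest fall of the 51 genes in siTG2. The direct contrast for GINS2 was not called (log2 0.27, SE 0.16, adjusted p = 0.162). GINS3 fell by 0.82 (log2) in siRNF40 and fell by 0.46 (log2) in siTG2, and GINS4 fell by 0.53 (log2) in siRNF40 and was at -0.16 in siTG2, not called. CDC45 fell by 0.55 (log2) in siRNF40 and fell by 0.45 (log2) in siTG2, with group means of 830, 579 and 605. GINS3 and CDC45 were no longer called in siTG2 under scaling to equal totals (highest adjusted p 0.0697 and 0.102 over the alternatives). GINS2 overlaps GSE1, a gene with a mean of 5393 normalized reads, by 7 bases on the opposite strand.

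The kinase that fires origins, and TOPBP1, fell in siRNF40 in all 3 members. CDC7, the catalytic subunit, was at 1135, 1103 and 1096 in siControl, 587, 531 and 477 in siRNF40, and 957, 1027 and 889 in siTG2. Its log2 fold change was -1.07 (SE 0.098, adjusted p = 5.66e-08) in siRNF40, and in siTG2 the libraries lay below siControl without a call (log2 -0.22, SE 0.098, adjusted p = 0.104). TOPBP1, which helps to recruit GINS in human cells, was at 2699, 2525 and 2688 in siControl, 1296, 1529 and 1206 in siRNF40, and 1641, 1623 and 1654 in siTG2. The groups did not overlap, with log2 -0.98 (SE 0.084, adjusted p = 2.33e-08) in siRNF40 and log2 -0.69 (SE 0.084, adjusted p = 4.77e-06) in siTG2. DBF4, the regulatory subunit, fell by 0.55 (log2) in siRNF40 and was at -0.11 in siTG2, not called. DBF4 overlaps SLC25A40 by 142 bases on the opposite strand.

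**Figure D2:**
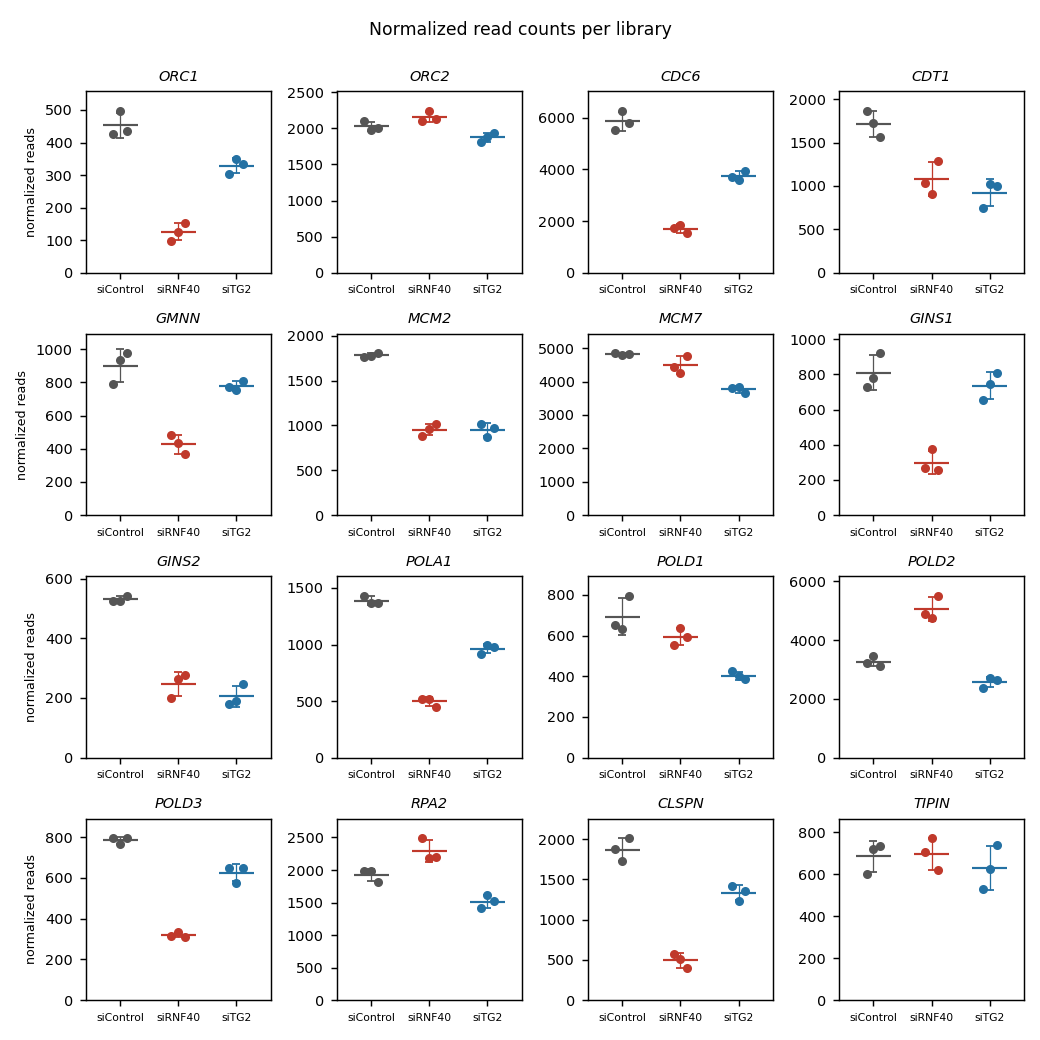
Normalized reads (y axis, from 0) of 16 of the genes in each library, by group on the x axis; points are libraries, the horizontal line is the mean and the bar the SD of 3 libraries. ORC1, CDC6, POLA1 and CLSPN are lowest in siRNF40, CDT1, MCM2 and GINS2 are low in both knockdowns, and POLD2 and RPA2 are highest in siRNF40 and lowest in siTG2.

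All 4 genes of the polymerase alpha and primase complex, which makes the RNA-DNA primer, fell in siRNF40, and POLA1, POLA2 and PRIM1 fell in siTG2. POLA1, the catalytic subunit, was at 1431, 1365 and 1371 in siControl, 522, 522 and 448 in siRNF40, and 916, 994 and 974 in siTG2. The change was log2 -1.48 (SE 0.092, adjusted p = 3.27e-10) in siRNF40, to 35.8% of siControl, and log2 -0.53 (SE 0.092, adjusted p = 0.00021) in siTG2, without overlap of any groups. PRIM1, the small primase subunit, was at 706, 723 and 704 in siControl, 248, 348 and 255 in siRNF40, and 428, 564 and 531 in siTG2. It changed by log2 -1.34 (SE 0.14, adjusted p = 2.6e-07) in siRNF40 and by log2 -0.50 (SE 0.14, adjusted p = 0.0104) in siTG2. With libraries scaled to equal totals the siTG2 call of PRIM1 ended (highest adjusted p 0.0665 over the alternatives). POLA2, the accessory subunit, was at 729, 843 and 752 in siControl, 376, 456 and 482 in siRNF40, and 501, 507 and 553 in siTG2. Its changes were log2 -0.83 (SE 0.12, adjusted p = 9.86e-06) in siRNF40 and log2 -0.57 (SE 0.12, adjusted p = 0.000854) in siTG2, and the direct contrast was not called. PRIM2, the large primase subunit, fell by 0.77 (log2) in siRNF40 and was at -0.28 in siTG2, just short of the threshold (adjusted p = 0.0544). PRIM1 overlaps NACA, a gene with a mean of 16630 normalized reads, by 33 bases on the same strand.

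All 3 listed genes of polymerase epsilon fell in siRNF40, and of these only POLE was called in siTG2. POLE4, counted with the other replication genes, was called lower in siRNF40 (log2 -0.72, SE 0.23, adjusted p = 0.0164). That call ended under at least 1 alternative (highest adjusted p 0.0545). In siTG2 POLE4 was not called (log2 -0.05, SE 0.23, adjusted p = 0.909). POLE, the catalytic subunit of the leading strand enzyme, was at 3259, 3034 and 3065 in siControl, 1412, 1357 and 1363 in siRNF40, and 2101, 1911 and 1986 in siTG2. The groups did not overlap, with log2 -1.18 (SE 0.071, adjusted p = 2.2e-10) in siRNF40 and log2 -0.64 (SE 0.071, adjusted p = 1.34e-06) in siTG2. POLE2, the second subunit, was at 438, 346 and 343 in siControl, 184, 199 and 244 in siRNF40, and 279, 377 and 315 in siTG2, with log2 -0.85 (SE 0.16, adjusted p = 0.000239) in siRNF40 and log2 -0.22 (SE 0.16, adjusted p = 0.326) in siTG2, where its libraries overlapped siControl. POLE3, a histone-fold subunit, fell by 0.67 (log2) in siRNF40 and was at 0.01 in siTG2 (adjusted p = 0.97), with group means of 1936, 1229 and 1944.

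The listed genes of polymerase delta were split in siRNF40, with a subunit that fell, a subunit that rose and a subunit that was not called. POLD4, counted with the other replication genes, was not called in siRNF40 (log2 0.32, SE 0.13, adjusted p = 0.056) or in siTG2 (log2 -0.23, SE 0.13, adjusted p = 0.212). Its direct contrast was called higher in siRNF40 (log2 0.55, SE 0.13, adjusted p = 0.00178). POLD3 was at 795, 767 and 795 in siControl, 315, 333 and 312 in siRNF40, and 651, 576 and 651 in siTG2. Its log2 fold change was -1.29 (SE 0.10, adjusted p = 9.18e-09) in siRNF40 and log2 -0.33 (SE 0.10, adjusted p = 0.0205) in siTG2. POLD3 lost its siTG2 call under scaling to equal totals (highest adjusted p 0.187 over the alternatives). POLD2, the subunit that links the catalytic subunit to POLD3, was at 3228, 3442 and 3130 in siControl, 4884, 4760 and 5507 in siRNF40, and 2374, 2707 and 2636 in siTG2. All siRNF40 libraries lay above all siControl libraries and all siTG2 libraries below them. POLD2 rose in siRNF40 (log2 0.63, SE 0.075, adjusted p = 1.45e-06), to 155% of siControl, and fell in siTG2 (log2 -0.35, SE 0.075, adjusted p = 0.00153). POLD1, the catalytic subunit, was at 654, 631 and 795 in siControl, 554, 635 and 593 in siRNF40, and 424, 401 and 384 in siTG2. Its siRNF40 libraries overlapped siControl (log2 -0.22, SE 0.11, adjusted p = 0.132), and it fell in siTG2 (log2 -0.77, SE 0.11, adjusted p = 3.75e-05). In the direct contrast POLD1 and POLD2 were called higher in siRNF40 (log2 0.56, SE 0.11, adjusted p = 0.000398 and log2 0.97, SE 0.075, adjusted p = 2.85e-09) and POLD3 lower (log2 -0.96, SE 0.10, adjusted p = 2.45e-07). POLD3 overlaps a long non-coding gene with a mean of 127 normalized reads, by 4683 bases on the same strand.

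The clamp loader RFC and the clamp PCNA fell in both knockdowns in all 6 members, with medians of -0.54 in siRNF40 and -0.48 in siTG2. RFC4 was at 1555, 1526 and 1431 in siControl, 792, 994 and 761 in siRNF40, and 1033, 1020 and 1163 in siTG2, with log2 -0.83 (SE 0.10, adjusted p = 1.79e-06) in siRNF40 and log2 -0.49 (SE 0.10, adjusted p = 0.00102) in siTG2. RFC3 was at 1219, 1456 and 1463 in siControl, 740.4, 938 and 748 in siRNF40, and 751, 889.6 and 859 in siTG2, with log2 -0.77 (SE 0.11, adjusted p = 1.15e-05) in siRNF40 and log2 -0.73 (SE 0.11, adjusted p = 4.95e-05) in siTG2. RFC2 was at 1255, 1406 and 1349 in siControl, 1047, 996 and 1011 in siRNF40, and 765, 809 and 744 in siTG2, with log2 -0.39 (SE 0.085, adjusted p = 0.000896) in siRNF40 and log2 -0.79 (SE 0.085, adjusted p = 9.55e-07) in siTG2. RFC2, RFC3 and RFC4 are small subunits of the same loader. Between the knockdowns RFC3 overlapped, RFC4 was lower in every siRNF40 library and RFC2 was lower in every siTG2 library. The direct contrast for RFC2 was log2 0.40 (SE 0.085, adjusted p = 0.000584). RFC1, the large subunit, was at log2 -0.62 in siRNF40 and -0.46 in siTG2, and RFC5 at -0.45 and -0.44, all called. PCNA, the sliding clamp, had the highest level per kilobase of the members and a small change in siRNF40. Its group means were 5106, 4419 and 4148, with log2 -0.21 (SE 0.063, adjusted p = 0.0108) in siRNF40, a call that ended without siRNF40 replicate 1 or under quantile normalization (adjusted p up to 0.0731), and log2 -0.30 (SE 0.063, adjusted p = 0.00122) in siTG2. The siTG2 call of PCNA ended under scaling to equal totals (highest adjusted p 0.117 over the alternatives). RFC4 and EIF4A2, a gene with a mean of 18660 normalized reads, overlap by 21 bases on opposite strands, and RFC5 and WSB2 by 224.

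RPA, the heterotrimer that binds single-stranded DNA, was also split in siRNF40. RPA1, the large subunit, was at 3723, 3893 and 3654 in siControl, 2332, 2557 and 2467 in siRNF40, and 3526, 3263 and 3347 in siTG2. It fell in siRNF40 (log2 -0.62, SE 0.067, adjusted p = 4.38e-07) and was not called in siTG2 (log2 -0.15, SE 0.067, adjusted p = 0.0897). RPA2, the subunit phosphorylated under replication stress, was at 1983, 1978 and 1812 in siControl, 2489, 2180 and 2201 in siRNF40, and 1414, 1608 and 1525 in siTG2. It rose in siRNF40 (log2 0.25, SE 0.08, adjusted p = 0.0159) and fell in siTG2 (log2 -0.34, SE 0.08, adjusted p = 0.00271), and no groups overlapped. The rise was the less firm of the 2 rises: without siControl replicate 3 or without siRNF40 replicate 1 the adjusted p was 0.0846 or 0.0923. The siTG2 call of RPA2 ended under scaling to equal totals (highest adjusted p 0.0546 over the alternatives). RPA3, the smallest subunit, was at 602, 568 and 619.8 in siControl, 559.9, 558 and 429 in siRNF40, and 286, 469 and 362 in siTG2. It was not called in siRNF40 (log2 -0.22, SE 0.15, adjusted p = 0.259) and fell in siTG2 (log2 -0.71, SE 0.15, adjusted p = 0.00155). RPA3 overlaps RPA3-AS1 by 77897 bases on opposite strands, and RPA3-AS1 had a mean of 568 normalized reads, so reads of these genes may not be told apart.

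The genes that process Okazaki fragments fell in siRNF40 in all 3 members, and FEN1 alone was called in siTG2. FEN1, the flap endonuclease, was at 1875, 2077 and 2103 in siControl, 940.3, 846 and 867 in siRNF40, and 1436, 1548 and 1664 in siTG2. The groups did not overlap, with log2 -1.19 (SE 0.085, adjusted p = 1.86e-09) in siRNF40 and log2 -0.38 (SE 0.085, adjusted p = 0.00184) in siTG2. DNA2, a nuclease and helicase for long flaps, was at 619.5, 569 and 537 in siControl, 271, 347 and 318 in siRNF40, and 592, 621 and 663 in siTG2. It fell in siRNF40 (log2 -0.89, SE 0.12, adjusted p = 6.26e-06), while in siTG2 its libraries overlapped siControl (log2 0.12, SE 0.12, adjusted p = 0.482). LIG1, which seals the nicks, fell by 0.41 (log2) in siRNF40 and was at -0.08 in siTG2, not called. FEN1 overlaps FADS2 by 4265 bases on the same strand and TMEM258 by 166 on the other, genes with means of 504 and 519 normalized reads.

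Of the fork protection genes, CLSPN, WDHD1 and TIMELESS fell in both knockdowns and TIPIN was called in neither. CLSPN encodes claspin, the adaptor between the fork and the checkpoint kinase CHEK1. Normalized reads of CLSPN were 1872, 1723 and 2010 in siControl, 571, 512 and 396 in siRNF40, and 1413, 1228 and 1353 in siTG2. The groups did not overlap, and CLSPN had the largest fall of the 51 genes in siRNF40 (log2 -1.93, SE 0.11, adjusted p = 1.74e-10), to 26.4% of siControl, with log2 -0.49 (SE 0.11, adjusted p = 0.0029) in siTG2. WDHD1, which ties polymerase alpha to the helicase, was at 2428, 2244 and 2445 in siControl, 1033, 1091 and 1005 in siRNF40, and 1519, 1384 and 1491 in siTG2, with log2 -1.18 (SE 0.077, adjusted p = 6.32e-10) in siRNF40 and log2 -0.70 (SE 0.077, adjusted p = 1.47e-06) in siTG2. TIMELESS fell by 0.47 (log2) in siRNF40 and fell by 0.21 (log2) in siTG2. Under scaling to equal totals TIMELESS was no longer called in siTG2 (highest adjusted p 0.531 over the alternatives). TIPIN, the partner of TIMELESS in a heterodimer, had group means of 685, 698 and 630 and log2 fold changes of 0.03 and -0.13.

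The direct contrast of the knockdowns tests where the knockdowns differed. Its fold changes do not use the siControl libraries, but its SEs and adjusted p-values do, through the shared estimate of the spread. Of the 51 genes, 29 were lower in siRNF40 than in siTG2 (26.6% of all tested genes), 8 were higher (26.6%) and 14 were not called, with a median log2 fold change of -0.31 beside -0.01 over all tested genes. The 8 higher in siRNF40 were ORC2, MCM3, MCM7, POLD1, POLD2, RFC2, RPA2 and RPA3. With the deposited scaling the complexes divided in this contrast. All members of polymerase epsilon, the firing kinase group, the Okazaki fragment group and the other MCM proteins were lower in siRNF40, with medians of -0.63, -0.44, -0.81 and -0.93. In MCM2-7, by contrast, none of 6 was lower and MCM3 and MCM7 were higher, with a median of 0.08, and in RFC with PCNA 2 were lower, 1 was higher and 3 were not called. A missed call does not show equal levels: for MCM2 the estimate was log2 -0.0024 (SE 0.086, adjusted p = 0.984). The lowest values were those of CLSPN (log2 -1.45, SE 0.11, adjusted p = 4.29e-09), ORC1 (log2 -1.40, SE 0.16, adjusted p = 5.33e-07) and GINS1 (log2 -1.31, SE 0.14, adjusted p = 2.45e-07), and the highest were those of POLD2 (log2 0.97, SE 0.075, adjusted p = 2.85e-09) and RPA2 (log2 0.59, SE 0.08, adjusted p = 4.22e-06). Under scaling to equal totals the median of all genes moved to -0.19 in this contrast, 65.9% of all calls were lower in siRNF40 in place of 50%, and 32 members were lower and 4 higher (POLD1, POLD2, RFC2 and RPA2). ORC2, MCM3, MCM7 and RPA3 were no longer called higher. In MCM2-7 under that scaling, MCM4 (log2 -0.24, adjusted p = 0.00784 in limma) and MCM6 (log2 -0.33, adjusted p = 0.000395) were called lower in siRNF40 and none was called higher, so the direction of this complex in the direct contrast depended on the scaling. MCM6 was also called lower under 5 other alternatives, quantile normalization, edgeR and DESeq2 among them.

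**Figure D3:**
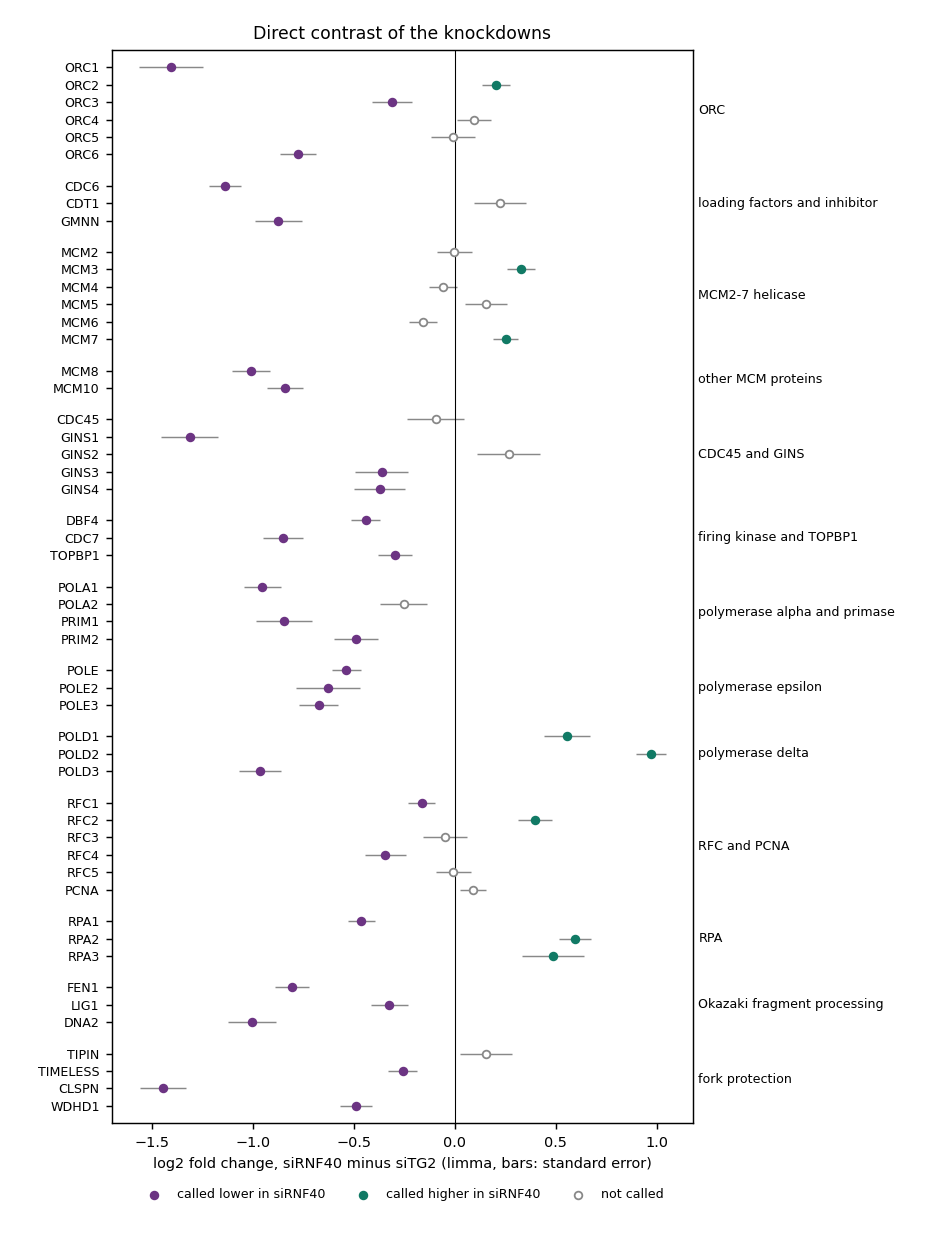
log2 fold change of each gene in siRNF40 minus siTG2 (x axis), grouped by complex on the y axis, with limma standard errors as bars; purple points were called lower in siRNF40, green points higher and open points not called. CLSPN and ORC1 lie at -1.45 and -1.40, MCM2 close to 0 and POLD2 at 0.97.

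Per kilobase of transcript (principal transcript of GENCODE 29), the levels of the 51 genes in siControl differed by more than an order of magnitude. PCNA was highest at 3757 ± 63.5 normalized reads per kb (SD, n = 3), followed by MCM7 at 1632 ± 6.81 and POLD2 at 1514 ± 73.9, and ORC1 (143 ± 12.3), GINS4 (143 ± 13.7) and DNA2 (137 ± 9.86) were lowest, within their SDs of each other. Subunits that act in a fixed ratio in a complex did not have equal mRNA levels. In the MCM2-7 ring the order in siControl was MCM7 (1632), MCM3 (1130), MCM4 (698.5), MCM6 (662), MCM2 (492) and MCM5 (342 normalized reads per kb), with MCM4 and MCM6 close together. In siTG2 MCM7 was at 1273, MCM3 at 603 and MCM5 at 185 normalized reads per kb. In ORC the order was ORC6 (835), ORC3 (501), ORC2 (470.1), ORC5 (446), ORC4 (305) and ORC1 (143 normalized reads per kb). ORC1, with the lowest level, had the largest siRNF40 fall of the subunits, to 39.7 normalized reads per kb. ORC6, with the highest level, had the next largest, to 360 normalized reads per kb. CDC6 was at 1220 normalized reads per kb in siControl, 354 in siRNF40 and 777 in siTG2.

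**Figure D4:**
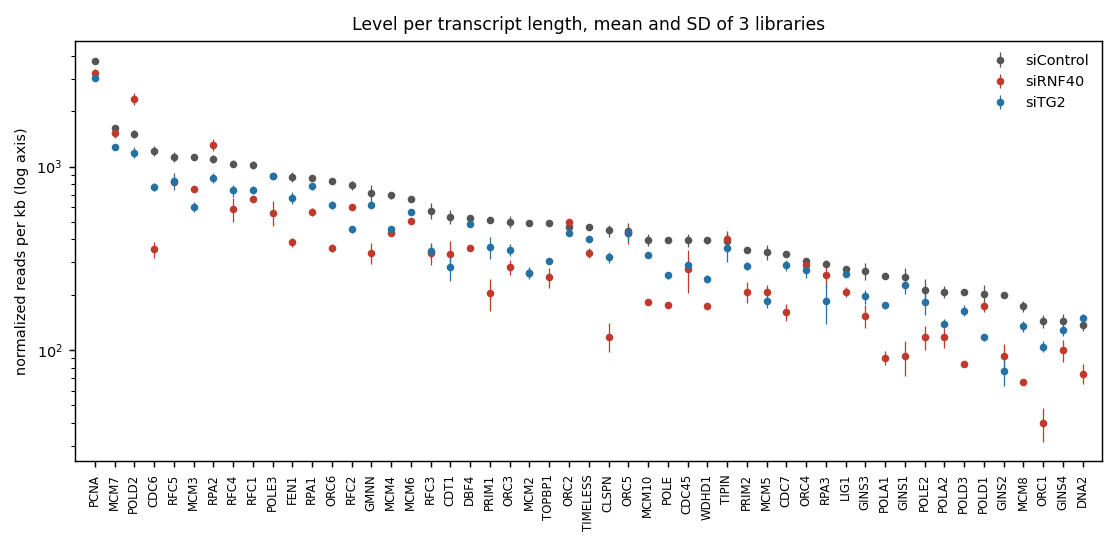
Normalized reads per kb of transcript (y axis, log scale) for the 51 genes, ordered by their siControl level on the x axis; points are means and bars the SD of 3 libraries in siControl (grey), siRNF40 (red) and siTG2 (blue). PCNA is highest at 3757 in siControl, and ORC1, GINS4 and DNA2 are lowest; POLD2 and RPA2 stand above their siControl level in siRNF40.

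Other genes of the pathway, a list of 32 that holds further origin, checkpoint, chromatin assembly and fork factors, showed the same direction with smaller medians. In siRNF40, 22 were called lower and 0 higher (median -0.53), against 23.6% and 21.7% of all tested genes. In siTG2, 12 were called lower and 2 higher (LRWD1 and RECQL4, median -0.22), against 18.5% and 12.8%. The largest falls in siRNF40 were those of MMS22L (log2 -1.50, SE 0.11, adjusted p = 3.21e-09) and MTBP (log2 -1.45, SE 0.14, adjusted p = 1.16e-07), which act in fork repair and in origin firing, and of DSCC1 (log2 -1.24, SE 0.11, adjusted p = 5.35e-08), a subunit of an alternative clamp loader. In siTG2 they were those of CHAF1A (log2 -0.80, SE 0.088, adjusted p = 1.14e-06), the large subunit of the chromatin assembly factor at forks, DONSON (log2 -0.57, SE 0.10, adjusted p = 0.000224), which takes part in helicase assembly, and MCMBP (log2 -0.55, SE 0.067, adjusted p = 4.81e-06), which binds MCM subunits. MCMBP was at 7592, 7496 and 7251 in siControl, 3791, 4359 and 3822 in siRNF40, and 5006, 4930 and 5372 in siTG2, and the 3 groups did not overlap. RECQL4, a helicase needed for origin firing, was called lower in siRNF40 (log2 -0.38, SE 0.078, adjusted p = 0.000634) and higher in siTG2 (log2 0.22, SE 0.078, adjusted p = 0.0413), and LRWD1, an ORC-binding protein, was called higher in siTG2 alone (log2 0.29, SE 0.099, adjusted p = 0.0343). Under at least 1 alternative neither siTG2 rise was called (highest adjusted p 0.171 for RECQL4 and 0.173 for LRWD1).

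Genes of a later cell cycle stage were lower along with the replication genes, and a cell cycle inhibitor was higher in siRNF40. All 12 G2 and mitosis genes were called lower in siRNF40 (median -0.83) and 8 of 12 in siTG2 (median -0.29), against 23.6% and 18.5% of all tested genes. Their summed level was 78010 to 80650 normalized reads in the siControl libraries, 39840 to 41970 in siRNF40 and 66580 to 67620 in siTG2. CDKN1A, which encodes the CDK inhibitor p21, was at 21720, 21950 and 21030 in siControl, 79470, 67900 and 75570 in siRNF40, and 20460, 22660 and 20780 in siTG2. It rose in siRNF40 (log2 1.78, SE 0.065, adjusted p = 5.35e-13), to 345% of siControl, and was at log2 -0.02 (SE 0.065, adjusted p = 0.857) in siTG2, where the libraries overlapped siControl. Under quantile normalization the siTG2 value turned to 0.16 and was called (adjusted p = 0.0437 in limma). E2F1, a transcription factor of many replication genes and a target of its own family, was at 542, 500.1 and 451 in siControl, 459, 399 and 459 in siRNF40, and 336, 326 and 319.6 in siTG2. It was not called in siRNF40 (log2 -0.18, SE 0.12, adjusted p = 0.233) and fell in siTG2 (log2 -0.60, SE 0.12, adjusted p = 0.000744). Of the 6 measured colon epithelial markers, 5 were called higher in siRNF40 (21.7% of all tested genes) and 3 lower in siTG2 (18.5%). The part of cell cycle stage, CDKN1A or E2F1 in the levels of the replication genes was not tested.

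A pair of short words tied in an earlier look at these same data to genes that fell in siRNF40 (GTCTTCA) or siTG2 (GCGCCCT) was read in the members' principal transcripts, as a description. The words came from falls in these data, so falls of members that hold them are not independent of that choice. The part of the words in the falls was not tested. In siRNF40, 42 of all 51 members and 23.6% of all tested genes were called lower. GTCTTCA lies in the 3′ UTR of 3 members, CDC6, POLA1 and RPA1 (5.9%, against 11.2% of 19512 genes). All 3 fell in siRNF40, with a median log2 fold change of -1.48. The 25 bases around each word are given 5′ to 3′ with the word in capitals.
CDC6: agagctacaGTCTTCAttttagtgc
POLA1: gaaattcctGTCTTCAtattaagat
RPA1: aaaattacaGTCTTCAaccctcttc
In 7 further members the word is in the coding sequence and not in the 3′ UTR, and all 7 fell in siRNF40 (median -0.91). The word is nowhere in the transcript of 41 members, of which 32 fell in siRNF40 (median -0.69), ORC1 among them, and 25.6% of all genes hold it anywhere in the transcript. GCGCCCT is in the 3′ UTR of 0 members, against 2.5% of all genes, and 14.7% of all genes hold it anywhere in the transcript. The coding sequences of MCM2, MCM5, POLD1 and POLE hold it, all 4 lower in siTG2 (median -0.83). In PCNA and POLA2, both lower in siTG2, it lies in the transcript outside the coding sequence and the 3′ UTR. It is nowhere in the transcript of 45 members, of which 30 were lower in siTG2 (median -0.36). In siTG2, 36 of all 51 members and 18.5% of all tested genes were called lower.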

How the data were processed

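Polyadenylated RNA was sequenced in 9 libraries. Per the submitters' processing notes, the tools were Trim Galore 0.4.1, STAR 2.7.0, HTSeq 0.12.4 and DESeq2, and builds hg19 and hg38 are named. The starts of 0 of 51 members equal those of GRCh38 in GENCODE 29, so the table's coordinates were used only to find overlapping genes. The values the authors deposited are a signal, reads per gene divided by a size factor per library. All values (100%) were whole reads within 0.001 after division by a single step per library, so whole reads were recovered. Columns marked NC were taken as siControl and TGM2_N as siTG2. The authors also deposited comparison tables with log2 fold changes and their errors on the log2 scale, p-values and adjusted p-values, and a test statistic per gene, a score from DESeq2 by the authors that was not used.

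The main test was limma 3.58.1 (R 4.3.3) with a trend in the prior variance, on deposited values plus 1 in log2, two-sided, with all 9 libraries in 1 fit of 3 group means and no covariates. Genes with a mean of at least 10 were tested (17663). SE is limma's moderated standard error. Alternatives (19) included edgeR 4.0.16 and DESeq2 1.42.0 on the whole reads. The fit was tested on simulated data. The labels do not say whether replicates were separate cultures, so p-values reflect only the spread among these libraries, which may be technical.

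The members and lists were chosen with earlier results of these data known. All 51 may be named. In each complex, values per library are given for the 2 members with the largest absolute change in siRNF40 and the 1 with the largest in siTG2, and for members called against the majority direction or in opposite directions. The 3 other replication genes with the largest called change in each knockdown are named, as are the context genes RNF40, TGM2, CDKN1A and E2F1. ORC2, TIPIN, LRWD1 and RECQL4 were singled out after their values were seen. POLE4 and POLD4 are named as further subunits of polymerases epsilon and delta. Promoters were joined by symbol, transcripts by gene ID. A planned comparison of protein sequences was not run.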

Additional observations from a re-analysis of the deposited data

How the results depend on the processing

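Of the 42 members called lower in siRNF40, 41 were called lower under all 19 alternatives (the exception was PCNA), and of the 2 called higher, POLD2 was. In siTG2, 25 of 36 were called lower under all 19 alternatives, and the 11 exceptions were lost under scaling to equal totals. In the direct contrast 24 of 29 were lower and 4 of 8 higher under all of them. Leaving out 1 library in turn gave 1 to 2 members higher in siRNF40. The lower value came without siControl replicate 3 or without siRNF40 replicate 1. The siTG2 median of the members was -0.31 under quantile normalization and -0.29 under equal totals. In the direct contrast equal totals gave a median of -0.49 and 4 members higher. With no filter on low values, where more genes were tested, 20.7%, 14.0% and 25.9% of genes were called in siRNF40, in siTG2 and in the direct contrast. CDKN1A in siTG2 reversed under quantile normalization to 0.16 (adjusted p = 0.0437 in limma); the cause was not tested.

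Replicate numbers did not pair the libraries: deviations of same-numbered libraries correlated at -0.075 to 0.081, and 7 of 18 best matches were with the same number. With a replicate block, 42 members were lower and 2 higher in siRNF40, 35 lower and 0 higher in siTG2, and 28 lower and 8 higher in the direct contrast. No group here has enough libraries for a check of single outlying values.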

Other observations

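Ratios between partner genes, chosen after their values were seen and taken per kilobase of transcript, show how unequally subunits moved within a library. The ratio of CDT1 to its inhibitor GMNN was 0.923, 0.717 and 0.624 in the siControl libraries, 0.841, 0.813 and 1.37 in siRNF40, and 0.377, 0.53 and 0.48 in siTG2. Every siTG2 library lay below every other library, and siRNF40 overlapped siControl. The ratio of POLD2 to POLD3 was 7.19, 7.95 and 6.97 in siControl, 27.4, 25.3 and 31.3 in siRNF40, and 6.46, 8.32 and 7.17 in siTG2. Here siRNF40 alone stood apart, at 28.0 ± 3.03 (SD, n = 3) against 7.37 ± 0.514 in siControl. The ratio of ORC1 to ORC2 was 0.306 ± 0.034 in siControl, 0.0793 ± 0.0165 in siRNF40 and 0.24 ± 0.0121 in siTG2 (SD, n = 3), without overlap of any groups. The ratio of MCM7 to MCM2 was 3.32 ± 0.0393 in siControl, 5.78 ± 0.343 in siRNF40 and 4.86 ± 0.464 in siTG2 (SD, n = 3), higher in all 6 knockdown libraries than in siControl. Since the pairs were picked for how they moved, the ratios are a description with no test. Such ratios do not depend on the scaling of the libraries.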
